A study of Mus musculus with 6 samples.

Results

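Heat shock proteins are molecular chaperones, and 40 genes for the cytosolic and mitochondrial ones, their cochaperones and their transcription factors were followed here in mouse leukemia cells. They were chosen by name from the 21881 genes of each of 2 deposited RNA-seq tables, and all 40 were found in both. No cut on their values was used, but earlier results of these data were known. By role they form 8 groups: HSP70 and HSP110 proteins (6 genes), HSP70 cochaperones (5), HSP40 proteins (5), HSP90 with its cochaperones (8), small heat shock proteins (2), subunits of the cytosolic chaperonin CCT (8), mitochondrial chaperones (4) and heat shock factors (2).

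Every sample came from AE9a leukemia, driven by a truncated AML1-ETO fusion protein, with loxP-flanked Id1 alleles (Id1fl/fl) and the tamoxifen-inducible Cre recombinase CreER, on the strain background given as C57/B6X129SV. The 6 samples comprise 2 controls, 2 given CBD at 15 µM for 16 h and 2 given 4-hydroxytamoxifen (4-OHT) at 0.1 µM for 48 h. CBD is named in the design as an Id1 inhibitor and is not spelled out. No vehicle is named for the controls, no 4-OHT arm without loxP sites is listed, neither the promoter of CreER nor the number of leukemias is stated, and the labels do not say whether replicates were grown separately.

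Each table gives 1 FPKM value per group, that is, fragments counted per transcript length and per sequencing depth, so there are 4 values for a gene and no spread between replicates. The 2 tables hold different control columns, called here the CBD-table control and the 4-OHT-table control. How many libraries stand behind each is not stated, and the 2 control samples are described by different comparisons (1 by CBD, 1 by tamoxifen), so each control column may be a single, different library. If so, the deposited q-values rest on no spread between controls, and a ratio between the controls compares 1 library with another. A gene "rose" or "fell" only where the q-value in the authors' deposited table is under 0.05. Log2 ratios were computed after adding 0.1 FPKM to both values, and ratios across the tables have no test. Id1 itself, the targeted gene, fell with 4-OHT from 15.4 to 0.741 FPKM (in the authors' deposited table its q is given as 0) and stood at 34.2 FPKM in the CBD-table control and 11.95 FPKM with CBD (q = 0.133 in the authors' deposited table). Of 13 myeloid blast and progenitor markers 12 were found, of which between 5 and 6 reached 1 FPKM in each column. Kit stood between 75.0 and 95.6 FPKM and Gata2 between 51.3 and 113 FPKM, while Mpo, a granule enzyme, stayed under 0.1 FPKM and Ptprc, the common leukocyte antigen CD45, between 0.0466 and 0.417 FPKM. None of 10 B and T cell markers reached 1 FPKM in any column.

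Cytosolic HSP70 binds exposed hydrophobic stretches of unfolded proteins, HSP40 proteins deliver these clients and trigger ATP hydrolysis, and HSP110 and BAG proteins release the nucleotide so that the cycle can start again. HSP90 takes over clients at a later step of folding, many of them kinases and transcription factors, and CCT encloses actin, tubulin and other proteins in a cavity. Under proteotoxic stress the transcription factor HSF1 forms trimers that bind inverted repeats of the unit nGAAn, the heat shock element, and raise the inducible members.

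The promoters of the members were searched for this element because HSF1 binds it. Whether the members are controlled together through it was not tested. RefSeq promoter windows on GRCm38.p6, from 250 bases before to 50 bases after a start site, were at hand for 32 of the 40 members. A 3-unit element, that is GAANNTTC followed after 2 further bases by GAA, on either strand, occurred in windows of 5 of the 32 members, which is 15.6%, and in 0.662% of all 27025 genes with a window. The 5 are Hsph1, Dnajb6, Chordc1, Hspd1 and Hspe1. A pair of units, GAANNTTC or TTCNNGAA (each its own reverse complement and each part of any 3-unit element), occurred in 17 of the 32 members, or 53.1%, and in 17% of all genes. Only exact matches inside the windows were counted, so units with a changed base or farther away were not searched. A match of letters is a description and not a bound site. The 5 genes with the longer element are shown, with the bases that match a pair or a 3-unit element in capitals. Hspd1 and Hspe1, the mitochondrial chaperonin and its lid, are read in opposite directions from a stretch of 215 bases between their start sites (chr1:55087933-55088147, plus strand). Dnajb6 (chr5:29735844-29735873, plus strand), Chordc1 (chr9:18292260-18292289, plus strand) and Hsph1 (chr5:149636279-149636308, minus strand) are shown as 30 bases around the element:
Hspe1 and Hspd1: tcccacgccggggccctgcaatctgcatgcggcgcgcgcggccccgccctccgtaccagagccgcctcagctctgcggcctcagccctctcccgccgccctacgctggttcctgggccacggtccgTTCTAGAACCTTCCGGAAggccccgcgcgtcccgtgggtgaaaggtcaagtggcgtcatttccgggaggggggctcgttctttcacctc
Dnajb6: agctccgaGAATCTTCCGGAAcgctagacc
Chordc1: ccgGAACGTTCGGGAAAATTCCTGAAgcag
Hsph1: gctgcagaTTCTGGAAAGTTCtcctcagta

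The heat-inducible HSP70 genes Hspa1a and Hspa1b each hold a single exact match to a pair of units in the window. Its first base lies 104 bases before the start site of each. Their 250 bases before the start site differ at 3 bases, and the stretch of Hspa1a (chr17:34972157-34972406, minus strand, GRCm38.p6) is shown:
Hspa1a: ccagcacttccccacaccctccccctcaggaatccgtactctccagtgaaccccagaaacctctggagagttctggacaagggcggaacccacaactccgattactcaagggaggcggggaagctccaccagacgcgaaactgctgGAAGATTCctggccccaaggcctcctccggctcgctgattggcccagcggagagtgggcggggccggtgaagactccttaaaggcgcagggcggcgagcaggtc

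**Figure D1:**
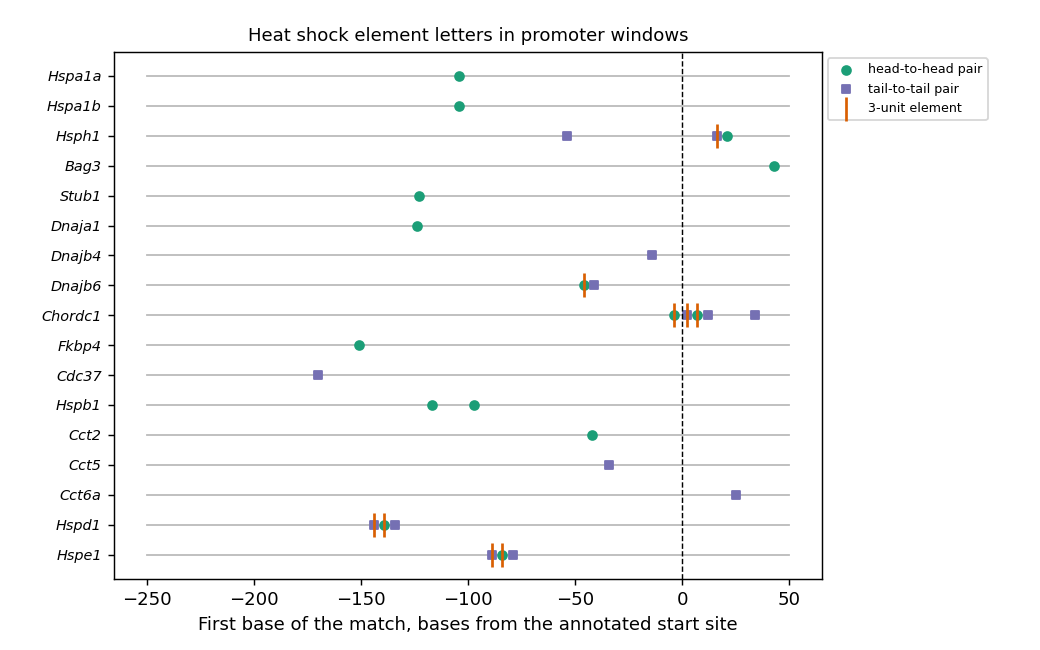
First base of each match to a 3-unit element (orange bars), a head-to-head pair GAANNTTC (green circles) or a tail-to-tail pair TTCNNGAA (violet squares), in bases from the annotated start site (dashed line), for the 17 members with a match in a window of 250 bases before to 50 after that site (grey lines). For genes with several windows the one with the lowest coordinate is drawn; the 3-unit elements lie in Hsph1, Dnajb6, Chordc1, Hspd1 and Hspe1.

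The chaperones that cells make without stress were among the most abundant transcripts, and the inducible HSP70 genes were barely detected. In the order CBD-table control, CBD, 4-OHT-table control and 4-OHT, which is kept throughout, Hspa8, the constitutive cytosolic HSP70, stood at 1089, 1519, 2943 and 2959 FPKM and ranked 62 among all genes by its mean. Hspa1a stood at 0.908, 1.66, 1.05 and 1.16 FPKM. Hspa1b, its neighbour, stood at 1.32, 2.20, 1.82 and 2.20 FPKM. Both inducible genes were thus low in all 4 columns, in which Hspa8 was 825, 690.1, 1615 and 1342 times the level of Hspa1b. Neither inducible gene passed a test (q = 0.550 and 0.584 with CBD, 0.607 and 0.157 with 4-OHT in the authors' deposited table). Reads of Hspa1a and Hspa1b cannot be assigned cleanly, since 60.3% and 62.3% of the 50-base words of their longest annotated transcripts recur in transcripts of another gene. For Hspa8 that share is 51.4%, most of it in a pseudogene.

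**Figure D2:**
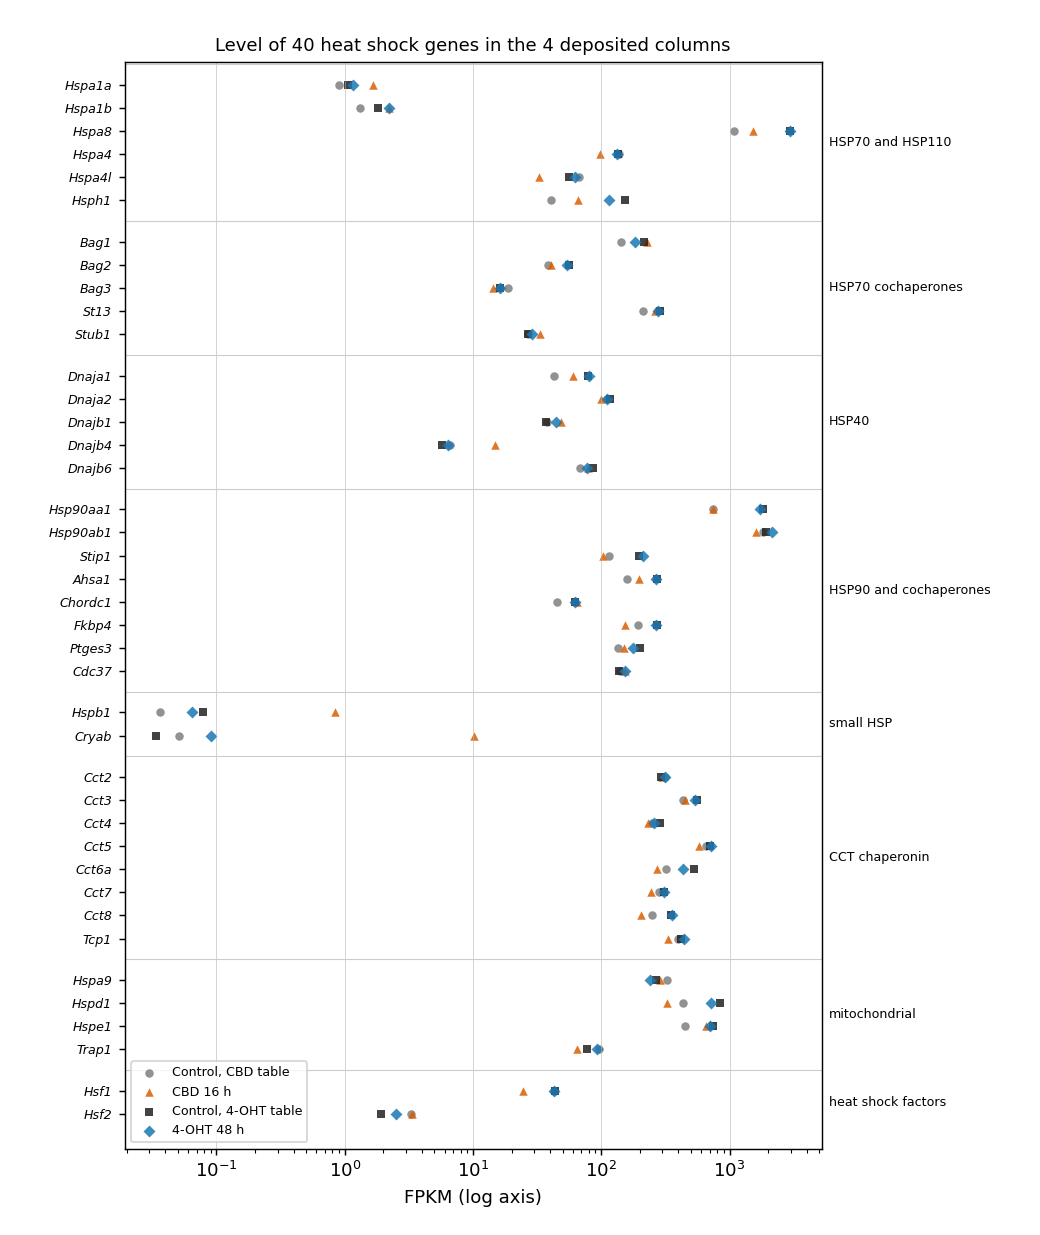
FPKM (log axis) of the 40 heat shock genes, grouped by role, in the 4 deposited columns, 1 symbol per column. At 10 FPKM or more in every column are 34 of the 40 members, with Hspa1a and Hspa1b near 1 FPKM in every column and Hspb1 and Cryab under 0.1 FPKM in the columns other than CBD.

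With CBD, 4 of 40 members rose and 2 fell, which is 15% called, against 26.2% of all 13751 genes tested in that table (18.4% rose and 7.74% fell). The median log2 ratio of the members was 0.04, beside 0.29 for all tested genes. Those that rose were Hsph1, Bag1, Dnajb4 and Cryab, and those that fell were Hspa4l and Hsf1. With 4-OHT, 5 of 38 tested members rose and 8 fell, 34.2% called against 44.1% of 11232 tested genes (27.2% rose and 16.9% fell), and no member changed by as much as 2-fold. The median log2 ratio of the members with 4-OHT was −0.00 and that of all tested genes 0.05. The members are abundant genes, and 37 of them reached 1 FPKM in both controls, as did 9481 genes tested in both tables. Over these, with CBD, 3 members rose and 2 fell (13.5% called, against 21.5% of the genes, of which 10.4% rose and 11.1% fell), and the medians were 0.02 for the members and 0.04 for the genes. With 4-OHT 35.1% of these members were called, against 46.6% of the genes (27.9% rose and 18.7% fell), and the medians were −0.01 and 0.04. The gap between the medians with CBD was thus small among expressed genes.

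For Hsph1, Hspa8 and Hsp90aa1 the ratio between the 2 control columns was larger than that of either treatment over its own control. Ratios of a treated column over the other control were as large for some members, such as Hspd1 with CBD, at −1.38 on the log2 scale. Of the 38 members tested in both tables, 28 had the higher value in the 4-OHT-table control, 73.7%, against 50.7% of the 10867 genes tested in both. The median log2 ratio of the 4-OHT-table control over the CBD-table control was 0.27 for the members and 0.01 for all these genes. Hsph1, Hspa8 and Hsp90aa1 were at least 2-fold higher there, 3 of 38 or 7.89%, against a background of 4.56%, and no member was 2-fold lower, against 7.36%. Where both controls reach 1 FPKM, as for 37 members, these backgrounds are 3.22% and 5.76%. Among genes at 100 FPKM or more in a control, the median was 0.47 for 24 members and 0.13 for all 1239 genes. The difference has no test, because each column is a single value from a separately made table. Each call of a member is therefore given with the position of the treated value against both controls. With CBD, 9 of the 38 members lay above both controls and 16 below both (23.7% and 42.1%, against 42.7% and 35.2% of all genes tested in both). With 4-OHT, 13 lay above and 3 below both (34.2% and 7.89%, against 30.6% and 16.4%).

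**Figure D3:**
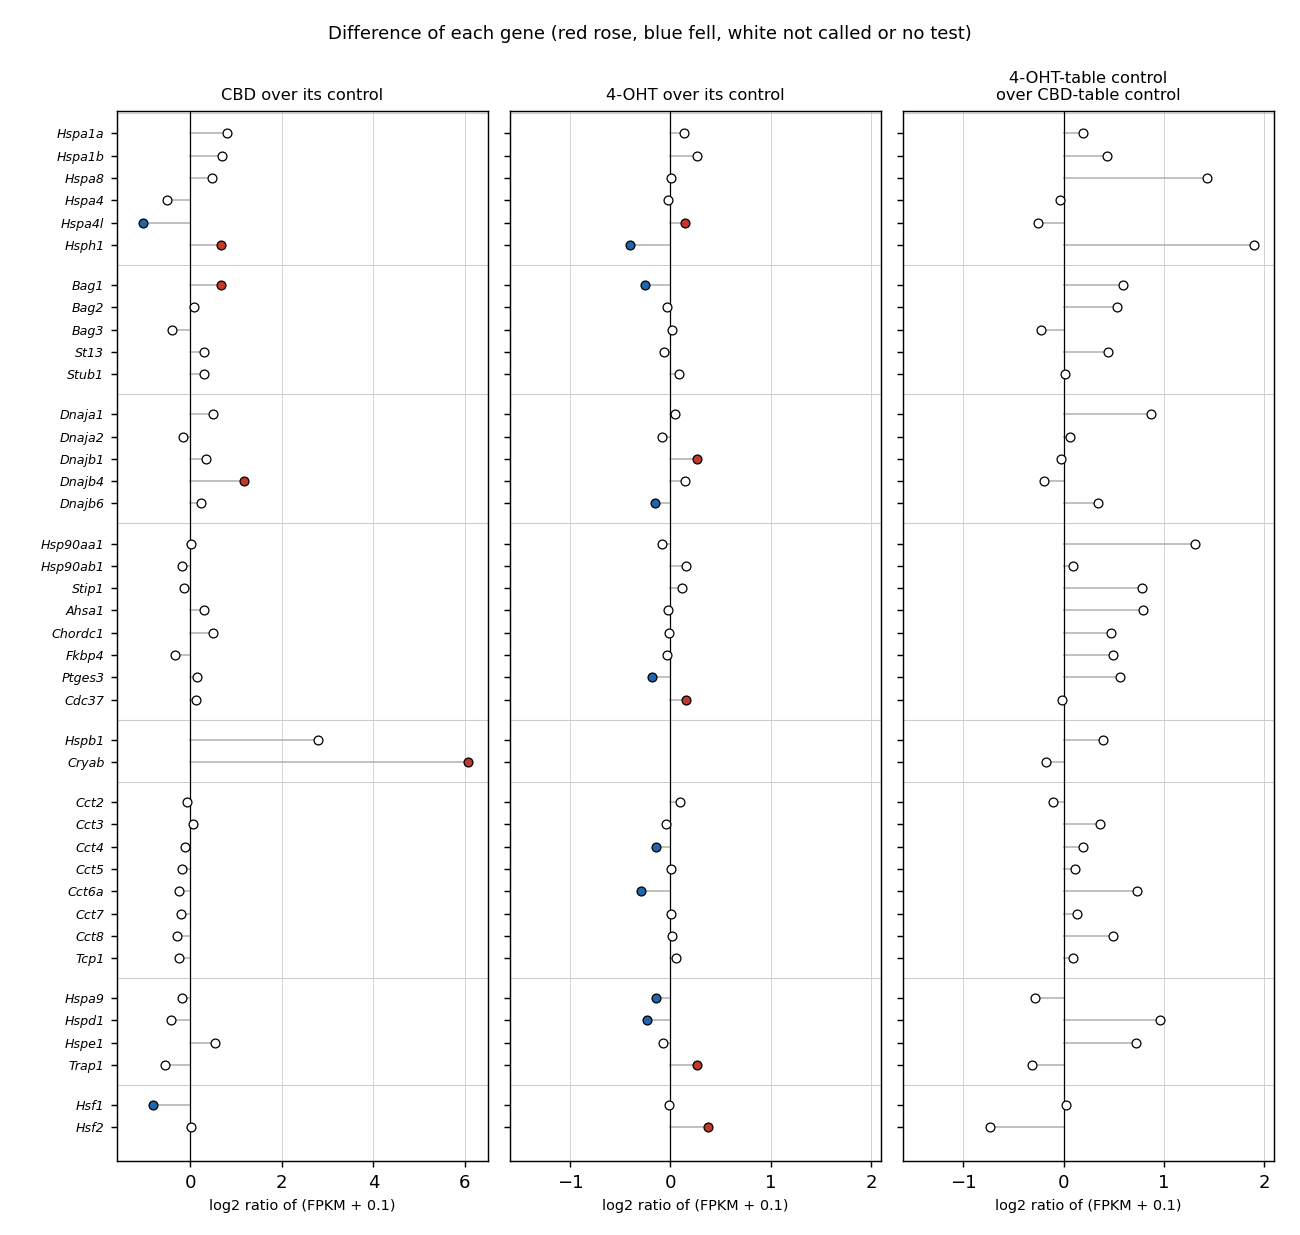
Log2 ratio of (FPKM + 0.1) for each member in 3 panels: CBD over its control, 4-OHT over its control, and the 4-OHT-table control over the CBD-table control (the first panel has a wider axis). Filled points rose (red) or fell (blue) at a deposited q under 0.05; white points were not called or, in the third panel, not tested; Hspb1 and Cryab have no test with 4-OHT. Hsph1, Hspa8 and Hsp90aa1 are the points beyond 1 in the third panel.

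Among HSP70 and HSP110 genes, the HSP110 proteins Hsph1 and Hspa4l were called in both comparisons and in opposite directions. Hsph1, which exchanges the nucleotide of HSP70 and is itself heat-inducible, lies at chr5:150419420-150438890 in mm9 and stood at 40.7, 65.3, 153 and 115 FPKM. It rose 1.60-fold with CBD (q = 0.0290) and fell with 4-OHT by 0.41 on the log2 scale (q = 2.08e-11), both q from the authors' deposited table. Both treated values lie between the 2 controls, which themselves differ 3.75-fold, so against the other control column its log2 ratios are −1.22 with CBD and 1.50 with 4-OHT. None of its 50-base words recurs in another gene. Hspa4l (chr3:40549535-40594287 in mm9), a relative of Hsph1 known for its role in sperm development, stood at 67.1, 32.8, 56.2 and 62.3 FPKM. It fell with CBD by 1.03 on the log2 scale (q = 0.000576 in the authors' deposited table), and its CBD value lies below both controls. With the trend of folds with transcript length removed its log2 ratio is −0.26, a value that rests on a longest annotated transcript of 9479 bases. With 4-OHT it rose 1.11-fold (q = 0.0255 in the authors' deposited table), to a value between the controls. Hspa4, the most abundant of these exchange factors in the CBD-table control, stood at 138, 97.5, 134 and 132 FPKM and was called in neither comparison. Of the 6 genes of this group, 1 rose and 1 fell with each treatment, beside 26.2% of all tested genes called with CBD and 44.1% with 4-OHT.

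**Figure D4:**
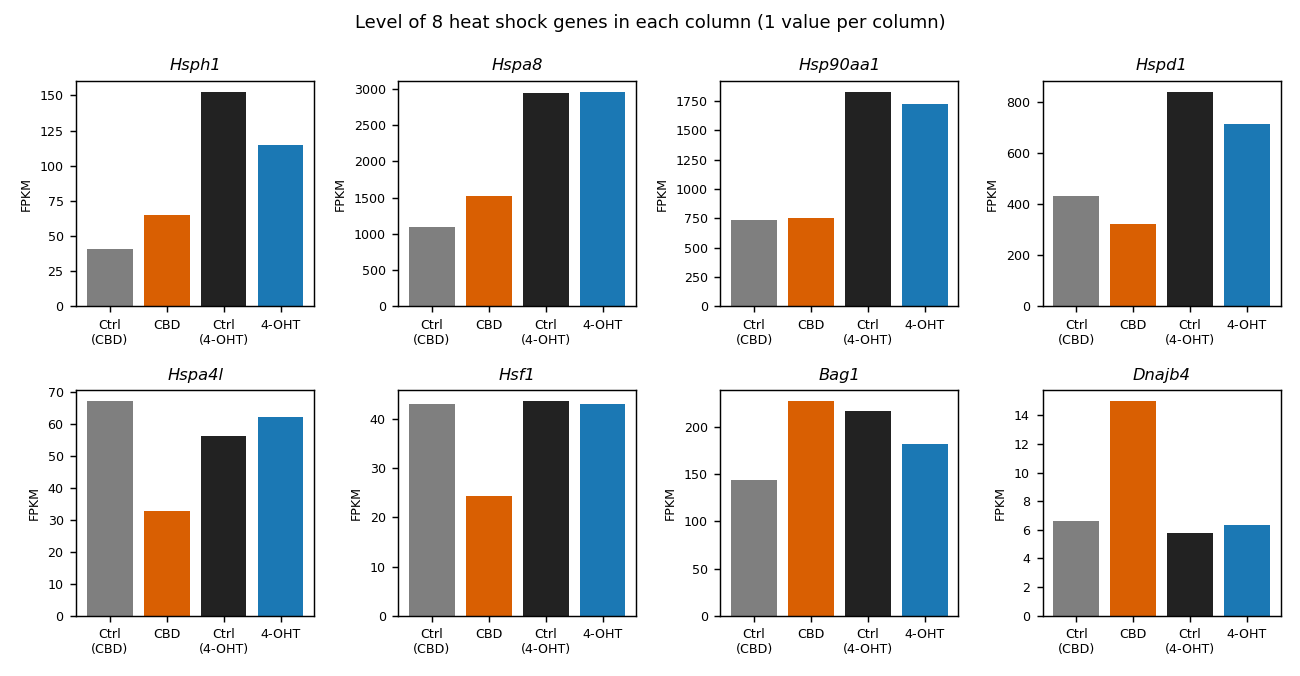
FPKM of 8 members as bars from 0, 1 bar per deposited column (control of the CBD table, CBD, control of the 4-OHT table, 4-OHT). In the upper row (Hsph1, Hspa8, Hsp90aa1, Hspd1) both columns of the 4-OHT table stand above both of the CBD table; in the lower row the CBD bar is the lowest for Hspa4l and Hsf1 and the highest for Bag1 and Dnajb4.

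Of the HSP70 cochaperones, Bag1 was the only one called, against backgrounds of 26.2% of all tested genes with CBD and 44.1% with 4-OHT. Bag1, an exchange factor that also binds the anti-apoptotic protein BCL2 (chr4:40883431-40895327 in mm9), stood at 143, 227, 217 and 182 FPKM. It rose 1.58-fold with CBD (q = 0.0329) and fell with 4-OHT by 0.26 on the log2 scale (q = 4.6e-05), both from the authors' deposited table. The CBD value exceeds the other table's control by a log2 ratio of only 0.07, its log2 ratio over its own control goes from 0.66 to 0.38 with the length trend removed, and the 4-OHT value lies between the controls. The other 4 genes had q-values of 0.449 or more with CBD and of 0.355 or more with 4-OHT in the authors' deposited table. Bag2, which inhibits the ubiquitin ligase CHIP, stood at 38.6, 40.7, 55.9 and 54.4 FPKM. Bag3, which links HSP70 to small heat shock proteins and autophagy and is a known HSF1 target, stood at 18.8, 14.3, 16.1 and 16.3 FPKM. Both columns of each table thus lay close together for Bag2, and Bag3 had its lowest value with CBD. St13, the HSP70-interacting protein HIP, stood at 212, 260.4, 288 and 275 FPKM. Stub1, which encodes CHIP itself, stood at 26.7, 33.0, 26.9 and 28.6 FPKM, with nearly equal controls.

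Dnajb4 was the HSP40 gene with the largest difference. This cochaperone of the cytosol (chr3:151846919-151873263 in mm9) stood at 6.61, 15.0, 5.76 and 6.37 FPKM. It rose 2.25-fold with CBD (q = 0.00776 in the authors' deposited table), and the CBD value is more than 2-fold above both controls and above 4-OHT. Dnajb1, the main stress-inducible HSP40 of the cytosol, stood at 37.9, 48.2, 37.1 and 44.7 FPKM. It rose 1.20-fold with 4-OHT (q = 7.75e-05) but passed no test with CBD (q = 0.336), both from the authors' deposited table, although its value was higher with CBD than with 4-OHT. The controls of Dnajb1 nearly coincide and both treated values lie above them. Dnajb6, a suppressor of protein aggregation, stood at 67.7, 79.1, 86.2 and 77.4 FPKM and fell with 4-OHT by 0.16 on the log2 scale (q = 0.000482 in the authors' deposited table), to a value between the controls, and 35.8% of its 50-base words recur in other genes. The farnesylated HSP40 gene Dnaja1 stood at 42.7, 60.7, 78.3 and 80.7 FPKM. Its relative Dnaja2 stood at 111, 100.1, 117 and 110.1 FPKM. Neither was called, and Dnaja1 followed the order of the tables, with both values of the 4-OHT table above both of the CBD table, while Dnaja2 was nearly level.

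No gene of HSP90 and its cochaperones was called with CBD (0 of 8 at q under 0.05 in the authors' Cuffdiff test, and 1, Chordc1, at an unadjusted p under 0.05), and with 4-OHT Cdc37 rose and Ptges3 fell. Over all tested genes, 26.2% were called with CBD and 44.1% with 4-OHT. The inducible HSP90 gene Hsp90aa1 stood at 738, 749.6, 1828 and 1721 FPKM. The constitutive one, Hsp90ab1, stood at 1812, 1607, 1929 and 2155 FPKM. As a ratio within a column, Hsp90aa1 was 0.407 and 0.467 of Hsp90ab1 in the CBD table and 0.948 and 0.799 of it in the 4-OHT table. For Hsp90aa1, 58.5% of 50-base words recur in other genes, chiefly a pseudogene, and 4.49% for Hsp90ab1; the part of such shared reads in the difference was not tested. Stip1, the adaptor HOP that hands clients from HSP70 to HSP90, stood at 114, 104, 197 and 213 FPKM. Ahsa1, the activator of the HSP90 ATPase, stood at 158, 196, 273 and 268 FPKM. Fkbp4, an immunophilin of steroid receptor complexes, stood at 194, 154, 273 and 266 FPKM. For these 3 genes both values of the 4-OHT table again exceed both of the CBD table. Ptges3, the p23 cochaperone that stabilises closed HSP90, stood at 135, 151, 200.3 and 177 FPKM and fell with 4-OHT by 0.18 on the log2 scale (q = 0.0047 in the authors' deposited table), to a value between the controls, with 22.2% of its words shared with other genes. Chordc1, an HSP90-binding protein, stood at 45.4, 64.2, 63.0 and 62.3 FPKM, the CBD-table control being the low value. Cdc37, which loads kinases onto HSP90, stood at 140.3, 153, 139 and 154 FPKM. It rose 1.11-fold with 4-OHT (q = 0.0184 in the authors' deposited table), and its controls are nearly equal.

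The small heat shock genes were the members with the largest log2 ratios and the lowest levels. Cryab, alpha-B crystallin, which holds unfolded proteins without ATP and is abundant in lens, muscle and glia (chr9:50560863-50564738 in mm9), stood at 0.0513, 10.1, 0.0341 and 0.0904 FPKM. It rose with CBD (q = 1.93e-06 in the authors' deposited table), a log2 ratio of 6.08 that depends on the amount added to near-zero values. Hspb1, HSP27, stood at 0.036, 0.834, 0.0784 and 0.0647 FPKM and was not called (q = 0.156 in the authors' deposited table). Both had their high value with CBD alone, and neither was tested with 4-OHT. Of 22 neuron, oligodendrocyte and astrocyte markers, 20 rose in the same CBD column and none fell, and their summed level was 569 FPKM with CBD against 65.1 to 116 FPKM in the other 3 columns. Snap25, a synaptic protein, stood at 0.0697, 36.7, 0.00945 and 0.00629 FPKM. The myelin gene Mbp stood at 38.6, 118, 32.0 and 28.6 FPKM. The astrocyte filament gene Gfap stood at 0.703, 9.45, 2.23 and 1.16 FPKM. All 22 markers were at 1 FPKM or more with CBD, against 5 in each other column, where 3 to 9 are listed at 0. The 8 listed muscle markers summed to 30.8 FPKM with CBD and to 22.5 to 33.4 FPKM elsewhere. The part of these neural transcripts in the rise of Cryab was not tested. For the higher values with CBD, more cells of a type and more RNA per cell cannot be told apart in such bulk samples.

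**Figure D5:**
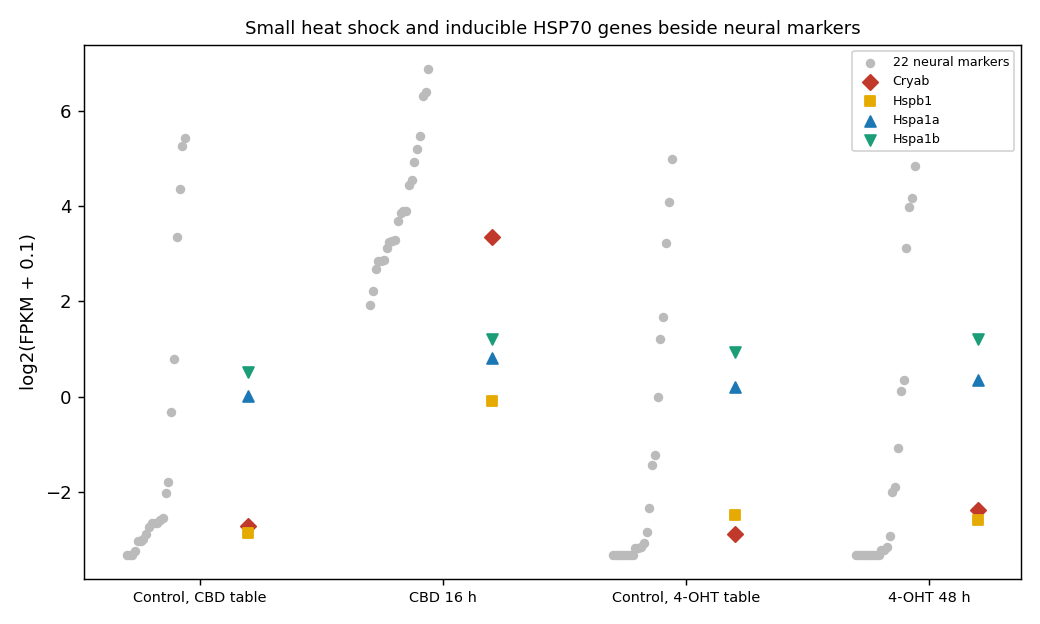
log2(FPKM + 0.1) of Cryab, Hspb1, Hspa1a and Hspa1b (coloured) beside 22 markers of neurons, oligodendrocytes and astrocytes (grey, sorted) in the 4 columns; genes listed at 0 lie at the bottom. In the CBD column all 22 markers and Cryab, at 10.1 FPKM, stand above 1 FPKM, while Hspa1a and Hspa1b stay near their level in the other columns.

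The 8 subunits of CCT, which assemble into rings with each subunit present once per ring, were abundant and close to each other, with the highest subunit at 2.63, 2.83, 2.47 and 2.74 times the lowest in the 4 columns. Cct5 was the highest subunit in every column. With CBD none of the 8 was called at q under 0.05 in the authors' Cuffdiff test, against 26.2% of all tested genes, and none had an unadjusted p under 0.05. Lower values than in the control were found for 7 of the 8, by 0.07 to 0.29 on the log2 scale, and for 5020 of all 13751 tested genes. Below both controls lay 6 of the 8 (75%, against 35.2% of all genes tested in both). Among the 9481 genes at 1 FPKM or more in both controls, 4539 had lower values with CBD and 38% lay below both. Cct5 stood at 655, 576, 709 and 712 FPKM. Tcp1, the alpha subunit, stood at 394, 332, 422 and 438 FPKM. Cct8 stood at 249, 203, 352 and 355 FPKM. Cct7 showed the same order, with its low value with CBD, at 281, 245, 307 and 309 FPKM. With 4-OHT Cct6a and Cct4 fell and no subunit rose, beside 16.9% and 27.2% of all tested genes that fell and rose. Cct6a, the zeta subunit, stood at 319.5, 271, 533 and 434 FPKM and fell by 0.29 on the log2 scale (q = 7.3e-06 in the authors' deposited table). Cct4, the delta subunit, stood at 251, 229.8, 287 and 260.0 FPKM and fell by 0.14 (q = 0.0352 in the authors' deposited table). Both 4-OHT values remain above the CBD-table control. Cct2 stood at 315, 300.2, 294 and 314 FPKM, and Cct3 at 431, 448, 555 and 540.1 FPKM. Cct2 was the subunit with the smallest spread over the 4 columns.

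Of the mitochondrial chaperones, none was called with CBD (0 of 4 at q under 0.05 in the authors' Cuffdiff test, 2, Hspe1 and Trap1, at an unadjusted p under 0.05), and with 4-OHT 2 of 4 fell and 1 rose, beside 26.2% and 44.1% of all genes called in the 2 comparisons. The difference between these counts was not tested. Hspd1, HSP60, which forms the folding chamber of the matrix (chr1:55134678-55144776 in mm9), stood at 433, 323, 842 and 715 FPKM. It fell with 4-OHT by 0.24 on the log2 scale (q = 0.00126 in the authors' deposited table), yet that value is well above both values of the CBD table. Hspe1, HSP10, the lid of that chamber (chr1:55144992-55148161 in mm9), stood at 449, 651, 739.8 and 705 FPKM. The ratio of Hspe1 to Hspd1, the genes that share the stretch of 215 bases, was 1.04, 2.02, 0.879 and 0.986, so it was near 1 except with CBD. In Hspd1 44.8% of the 50-base words recur in other genes, chiefly a pseudogene, and in Hspe1 8.2%. With the length trend removed the log2 ratio of Hspe1 with CBD goes from 0.54 to 0.10, while that of Hspd1 goes from −0.42 to −0.50. Hspa9, mortalin, the HSP70 of the matrix and of protein import, stood at 324, 288, 266 and 242 FPKM. It fell with 4-OHT by 0.14 (q = 0.0401 in the authors' deposited table), to a value below both controls, and it was higher in the CBD-table control, unlike Hspd1. Trap1, the mitochondrial HSP90, stood at 96.0, 65.2, 77.3 and 93.1 FPKM. It rose 1.20-fold with 4-OHT (q = 2.23e-05 in the authors' deposited table), to a value between the controls, and had its lowest value with CBD (q = 0.0842 in the authors' deposited table).

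Hsf1, the master regulator of the heat shock response (chr15:76307875-76331402 in mm9), stood at 43.0, 24.3, 43.6 and 43.1 FPKM. The other 3 columns agree within 1 FPKM, and the CBD value is the low one. It fell with CBD by 0.82 on the log2 scale, with q = 0.0494 in the authors' deposited table, just under the threshold. Adjusted anew from the deposited p-values of the authors' table over genes averaging 1 FPKM or above, its q is 0.0503 and the call is lost. Hsf2, a related factor that can form mixed trimers with HSF1, stood at 3.29, 3.35, 1.93 and 2.53 FPKM. Hsf2 rose 1.29-fold with 4-OHT (q = 0.0356 in the authors' deposited table), but stayed below both columns of the CBD table.

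The 5 members with a 3-unit element had higher values in the 4-OHT-table control than in the CBD-table control in all 5 cases, with a median log2 ratio of 0.72. Of the 26 members with a window, no such element and a test in both tables, 17 were higher there (65.4%), with a median of 0.12. The share of all genes tested in both that were higher there is 50.7%. With 4-OHT all 5 had lower values than in the control and Hsph1, Dnajb6 and Hspd1 fell. Of the 26 without the element 9 had lower values, 3 fell and 5 rose. Of all 11232 tested genes, 4729 had lower values, 16.9% fell and 27.2% rose. With CBD 4 of the 5 had higher values and 1, Hsph1, rose. Of 27 without the element 14 had higher values, 2 rose and 1 fell. Among all 13751 tested genes, 8731 had higher values, 18.4% rose and 7.74% fell. Hspa8 and Hsp90aa1, which also differed most between the controls, are not among the members with a window. The ratios in these counts share columns, so the counts are not independent. A high 4-OHT-table control raises the ratio between the controls and lowers the 4-OHT ratio. A low CBD-table control raises the ratio between the controls and the CBD ratio. Hspd1 and Hspe1 also share the same element. These are counts over few genes, given as a description, and a link to the element was not tested.

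A wider list of 64 further chaperone, cochaperone, mitochondrial protease and heat shock factor genes was looked up, and 62 were found. With CBD 5 of 57 tested rose and 4 fell (15.8% called), and with 4-OHT 16 of 56 rose and 11 fell (48.2% called), beside the backgrounds of 26.2% and 44.1%. Their median log2 ratio between the controls was 0.02, against 0.27 for the members. By list it ran from −0.38 for other heat shock factor targets and regulators to 0.51 for prefoldin. It was 0.38 for other HSP90 cochaperones. Among the member groups it ran from −0.36 for heat shock factors to 0.53 for HSP90 and cochaperones, so it was not particular to the members. With CBD the called gene with the largest log2 ratio, 4.18, was Hspa12a, of the other HSP70 genes (q = 2.58e-07 in the authors' deposited table). It rose from 0.012 to 1.93 FPKM, averaged under 1 FPKM over these columns and was named after its values were seen. Like Cryab, Hspa12a had its high value with CBD alone. Of 11 other HSP40 genes tested with CBD, 1 rose and 3 fell. Dnajb14, of the endoplasmic reticulum membrane, rose from 4.10 to 10.8 FPKM. Dnajc13, of endosomes, fell from 28.7 to 14.3 FPKM and Dnajc21, a ribosome assembly factor, fell from 37.9 to 19.4 FPKM. The HSP90 cochaperone Nudc fell with both treatments, from 158 to 91.4 FPKM with CBD and from 257 to 217 FPKM with 4-OHT. Its CBD value lies below both controls. Its 4-OHT value lies between them, with a log2 ratio of 0.47 over the CBD-table control. Pfdn5, a prefoldin subunit that passes nascent proteins to CCT, rose with both, from 282 to 478 and from 216 to 244 FPKM. The CBD value of Pfdn5 lies above both controls. The 4-OHT value lies between them, with a log2 ratio of −0.21 over the CBD-table control. Hsbp1, a small protein that binds HSF1 and restrains it, rose with CBD from 42.1 to 77.7 FPKM, and the CBD value is also above the 57.3 FPKM of the other control.

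With 4-OHT, among called genes of this wider list with a mean of at least 1 FPKM over the control and 4-OHT columns, the largest log2 ratios were those of Hdac6, Cirbp and Dnaja4. Of the genes under that mean, Dnajb5 rose from 0.355 to 1.41 FPKM (log2 ratio 1.73) and Hsf4 from 0.565 to 1.04 FPKM (0.78), both named here after their values were seen. The deacetylase gene Hdac6, whose product binds ubiquitin and takes part in aggregate clearance, rose from 3.44 to 6.12 FPKM. The cold-inducible RNA-binding protein gene Cirbp rose from 6.42 to 10.2 FPKM, below the 17.7 FPKM of the CBD-table control. Dnaja4 rose from 26.3 to 40.5 FPKM. Dnajb2, an HSP40 with ubiquitin-binding motifs, rose from 8.34 to 11.03 FPKM, and Dnajc2, which works at the ribosome, fell from 164 to 140.4 FPKM. Among other HSP70 and exchange genes, the testis-enriched HSP70 gene Hspa2 rose from 8.54 to 9.94 FPKM and the exchange factor gene Hspbp1 fell from 61.7 to 55.7 FPKM. Among other HSP90 cochaperone genes, the immunophilin gene Fkbp5 rose from 2.44 to 3.15 FPKM and Ppid fell from 176 to 155 FPKM. Both directions thus occurred within each of these lists. The prefoldin gene Pfdn2 fell from 138 to 124 FPKM, opposite to Pfdn5. Of 13 mitochondrial proteostasis genes, 3 rose and 3 fell: the protease genes Spg7, from 17.6 to 23.2 FPKM, and Lonp1, from 89.6 to 110.3 FPKM, rose, and the protease subunit gene Clpp fell from 57.2 to 43.7 FPKM. Zfand2a, an HSF1 target, rose with CBD from 8.88 to 11.7 FPKM and fell with 4-OHT from 8.61 to 6.51 FPKM, the controls being nearly equal. The 4-OHT values of Hdac6, Dnajb5, Dnaja4 and Hspa2 lay above both controls, and those of Hspbp1 and Zfand2a below both. Those of Hsf4, Cirbp, Dnajb2, Dnajc2, Fkbp5, Ppid, Pfdn2, Spg7, Lonp1 and Clpp lay between the controls. For the genes between the controls the direction thus reverses against the CBD-table control. With CBD none of 12 tested mitochondrial proteostasis genes was called in the authors' Cuffdiff test, and 2 had an unadjusted p under 0.05. The shares called over all tested genes were 26.2% with CBD and 44.1% with 4-OHT.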

How the data were processed

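Reads were aligned with Bowtie 0.12.2 to mm9 and compared with Cuffdiff, per the submitters' processing notes; Cuffdiff's version, annotation and settings: not given in the sources used here. The authors deposited FPKM values, 1 per group and table, and the p-value and q-value of their test. Genes with status OK count as tested (13751 with CBD, 11232 with 4-OHT). Read totals are not given. Among genes under 0.1 FPKM, ratios of the 4-OHT table recurred at a few values (51 of 2140 genes at a log2 ratio of −0.17), but total reads were not recovered, so depth is unknown and no interval was computed. No test was added. Deposited q-values are from the authors' Cuffdiff test over all tested genes.

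The members and lists were chosen with earlier results of these data known. All 40 members are named; of the wider list, up to 3 changed genes with the largest absolute log2 ratio and a mean of at least 1 FPKM per list and comparison. Folds are (FPKM + 0.1) ratios. The length trend was the median in 20 length bins, taken over 5515 genes reaching 10 FPKM in each control (GENCODE vM21 longest transcripts, 89.3% of genes and all 40 members matched). Shared 50-base words were counted against GENCODE vM21 transcripts on the same strand. Starts of mm9 positions were raised by 1: for 6275 of 19304 genes the RefSeq length is the deposited end minus the start, and for 432 it is 1 more. Promoters are RefSeq windows (GRCm38.p6). Python 3.11.15, numpy 2.4.6 and pandas 2.3.3 were used, and the functions were tested on simulated data. The alternatives were a q of 0.01, a 2-fold minimum, a mean of 1 FPKM, other pseudocounts, the other control column, centring and the length trend.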

Additional observations from a re-analysis of the deposited data

How the results depend on the processing

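With the deposited q under 0.01 in place of 0.05, 3 members changed with CBD (Hspa4l, Dnajb4 and Cryab) in place of 6, and 8 with 4-OHT in place of 13. With q under 0.05 and a 2-fold minimum, 3 changed with CBD and 0 with 4-OHT. Requiring the treated value to lie beyond the other table's control in the same direction, an alternative chosen after seeing the data, left 5 with CBD and 3 with 4-OHT (Dnajb1, Cdc37 and Hspa9). A mean of at least 1 FPKM, a q recomputed over such genes, and a limit of 1 FPKM in both controls (also chosen after seeing the data) gave 5 or 6 with CBD and 13 with 4-OHT; recomputing q lost Hsf1 (q = 0.0503). Against the other table's control, the median log2 ratio with CBD was −0.28 for all members, −0.62 for HSP70 and HSP110, −0.14 for HSP70 cochaperones, −0.12 for HSP40, −0.45 for HSP90 and cochaperones and −0.038 for heat shock factors; with 4-OHT it was 0.29 for all members, 0.51 for HSP70 and HSP110, 0.34 for HSP70 cochaperones, 0.46 for HSP90 and cochaperones, 0.30 for mitochondrial chaperones and −0.18 for heat shock factors. The small HSP median of 4.43 with CBD was 5.78 and 2.11 with pseudocounts of 0.01 and 1 FPKM, 6.08 with a mean of at least 1 FPKM (1 gene) and 4.01 with the length trend removed. Other group medians moved by less than 0.25. The direction of 11 calls reversed against the other control: Hsph1 with CBD (−1.22), and with 4-OHT Hspa4l (−0.11), Hsph1 (1.50), Bag1 (0.34), Dnajb6 (0.19), Ptges3 (0.39), Cct4 (0.052), Cct6a (0.44), Hspd1 (0.72), Trap1 (−0.044) and Hsf2 (−0.37); the cause was not tested. No call changed direction under the other pseudocounts or with centring on the median of tested genes at 1 FPKM or more (0.19 with CBD and 0.04 with 4-OHT). No paired analysis was possible because the tables hold 1 value per group, and for the same reason no replicate could be left out.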
